A study of Homo sapiens with 30 samples.

Results

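The chromatin described here lies around 7 genes that encode pioneer and luminal lineage transcription factors: FOXA1, FOXA2, HOXB13, GATA2, GATA3, GRHL1 and GRHL2. Members were all deposited peaks whose summit fell within 100 kb of one of these gene bodies, by RefSeq positions on hg38. The rule used position and no measured value, but the genes were chosen with earlier results of these data known. It took 6566 of 4661359 peak entries over 30 libraries, which fell in 515 of the 443798 non-overlapping regions (250 bp to either side of a summit) on which all libraries were scored. GRHL2 held 149 of the 515 regions, GATA2 75, FOXA1 70, HOXB13 62, FOXA2 58, GATA3 51 and GRHL1 50. The 7 genes were grouped by what they are known for, and no measured value shows that they act as a group.

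LNCaP and VCaP are established prostate cancer lines that respond to androgen, LNCaP derived from a lymph node metastasis and VCaP from a vertebral one. LNCaP was seeded at 130000 cells per well in RPMI and VCaP at 300000 in DMEM, each with 8% charcoal-stripped serum, which is poor in steroids. After 48 h the cells were given vehicle or R1881, a synthetic androgen, for 24 h, and open DNA was marked with the Tn5 transposase (Omni-ATAC-seq). The LNCaP groups received vehicle or 0.03, 0.06, 0.1 or 10 nM R1881 (replicates 3, 4 and 5). The VCaP groups received vehicle or 0.01, 0.03, 0.06 or 10 nM (replicates 1, 2 and 4). Each of the 10 groups held 3 libraries. The study set out to compare low with high androgen, whose effects on growth are not proportional to dose. Nothing in the labels says that replicates were separate cultures, so the p-values measure only the spread between these libraries.

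FOXA1 and FOXA2 are forkhead proteins known as pioneer factors, since they can bind DNA wrapped on nucleosomes and open it to other proteins. In luminal prostate cells FOXA1 opens many regulatory sites that respond to androgen, and GATA2 and HOXB13 are known to share such sites with it. FOXA2 is better known from endoderm and from neuroendocrine prostate tumours. GATA3 is a luminal factor of breast and prostate epithelium, and GRHL1 and GRHL2 are grainyhead proteins that maintain epithelial identity. ATAC-seq at these loci shows how open the DNA around the genes was. It measured neither their RNA nor their protein.

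Promoter windows, here the 250 bases before a RefSeq gene start on GRCh38.p14, were at hand for 4 of the 7 genes. They were searched on both strands for the forkhead words TGTTTAC and TGTTTGC, the GATA word AGATAA, the HOXB13 word CCATAAA and the grainyhead words AACCGGTT and AACCTGTT. The 2 windows shown hold the only matches to these words among 10 windows of these genes, and each overlaps a gene-end region whose values are given below. Capitals mark the word TGTTTGC, which in the FOXA1 window lies on the opposite strand and so reads GCAAACA.
FOXA1, chr14:37595250-37595499, minus strand: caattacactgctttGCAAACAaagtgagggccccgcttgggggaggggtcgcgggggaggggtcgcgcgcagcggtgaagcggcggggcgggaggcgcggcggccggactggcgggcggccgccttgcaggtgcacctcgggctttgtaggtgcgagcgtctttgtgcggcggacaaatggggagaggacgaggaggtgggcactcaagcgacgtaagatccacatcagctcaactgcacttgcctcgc
GATA3, chr10:8045083-8045332, plus strand: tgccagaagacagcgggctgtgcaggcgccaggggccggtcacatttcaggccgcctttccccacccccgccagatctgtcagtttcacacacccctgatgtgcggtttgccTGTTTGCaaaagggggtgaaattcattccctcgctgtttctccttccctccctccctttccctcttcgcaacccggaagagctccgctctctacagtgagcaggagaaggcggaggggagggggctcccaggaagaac
A match to TGTTTGC was present in 3.23% of 35116 RefSeq windows of the same length. For the other words this share was 2.98% (TGTTTAC), 9.17% (AGATAA), 2.3% (CCATAAA), 0.117% (AACCGGTT) and 0.595% (AACCTGTT). These matches describe letters and do not show binding.

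Each library scored a region by where its best overlapping peak stood when peaks were ordered by -log10 p, as a percentile. Lists were first shortened to the shortest list of the line (134750 entries in LNCaP, 104726 in VCaP). The value is 0 where no peak was listed and approaches 100 for the strongest peaks, and a difference is in rank points. It gives a peak's place in its own library, not its signal, and with bulk cells fewer open cells and less opening per cell cannot be told apart. Whole lists held 105034 to 223998 entries, and read numbers are unknown. Background pileup, a measure of relative depth recovered from the peak statistics, was 3.06 to 5.26 in LNCaP. VCaP libraries ranged from 1.79 to 2.74 except for vehicle replicates 1 and 2, at 1.14 and 1.09, so the 2 shallowest libraries belong to 1 control group. The part of this in the VCaP results was not tested. Markers were looked up at their gene ends, to a distance of 1 kb. Of the luminal ones, KLK2, KRT8, KRT18 and HOXB13 had a peak in all 15 libraries of each line, and KLK3 in 15 of 15 LNCaP and 2 of 15 VCaP libraries. Of the 3 basal markers, KRT14 and TP63 had none in any library and KRT5 had one in 3 LNCaP libraries and 1 VCaP library. All 4 neuroendocrine markers and stromal ACTA2 had one in every library of both lines, stromal COL1A2 in 15 and 12, and COL1A1 in none. Of the immune markers, PTPRC had one in 9 LNCaP libraries and 1 VCaP library, CD3E in 10 and 11, and ITGAM in none.

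Around the 7 genes together, a peak was listed at 170 to 186 regions in LNCaP vehicle libraries and at 181 to 191 in LNCaP at 10 nM. In VCaP these numbers were 140 to 170 and 148 to 185, so vehicle and 10 nM overlapped in both lines. Single loci differed more. At GRHL2 the LNCaP libraries listed 44 to 49 regions with vehicle and 56 to 61 at 10 nM, with 51 to 53 at every low dose. When only peaks with their summit inside the region were counted, the GRHL2 ranges met, at 33 to 38 and 38 to 43. At GRHL1 LNCaP went from 19 to 23 listed regions with vehicle to 26 to 28 at 10 nM. GATA3 in VCaP went from 8 to 10 regions with vehicle to 13 to 17 at 10 nM, while its numbers in LNCaP overlapped (12 to 17 and 12 to 16). FOXA1 in VCaP had 20 to 24 regions with vehicle and 27 to 28 at 10 nM, and in LNCaP its counts overlapped (25 to 31 and 27 to 28). The VCaP counts at FOXA1 were already 24 to 29 at 0.01 nM, 26 to 30 at 0.03 nM and 27 to 29 at 0.06 nM. FOXA2 in VCaP had 17 regions in each vehicle library and 15 to 16 at 10 nM. Counted by summits inside the region, these FOXA2 ranges overlapped (13 to 14 and 11 to 14). By that count GRHL1 in LNCaP and GATA3 and FOXA1 in VCaP still did not overlap between vehicle and 10 nM. All other counts by locus and line overlapped between vehicle and 10 nM. These counts were not tested, and no share of listed regions over all regions is set beside them.

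**Figure D1:**
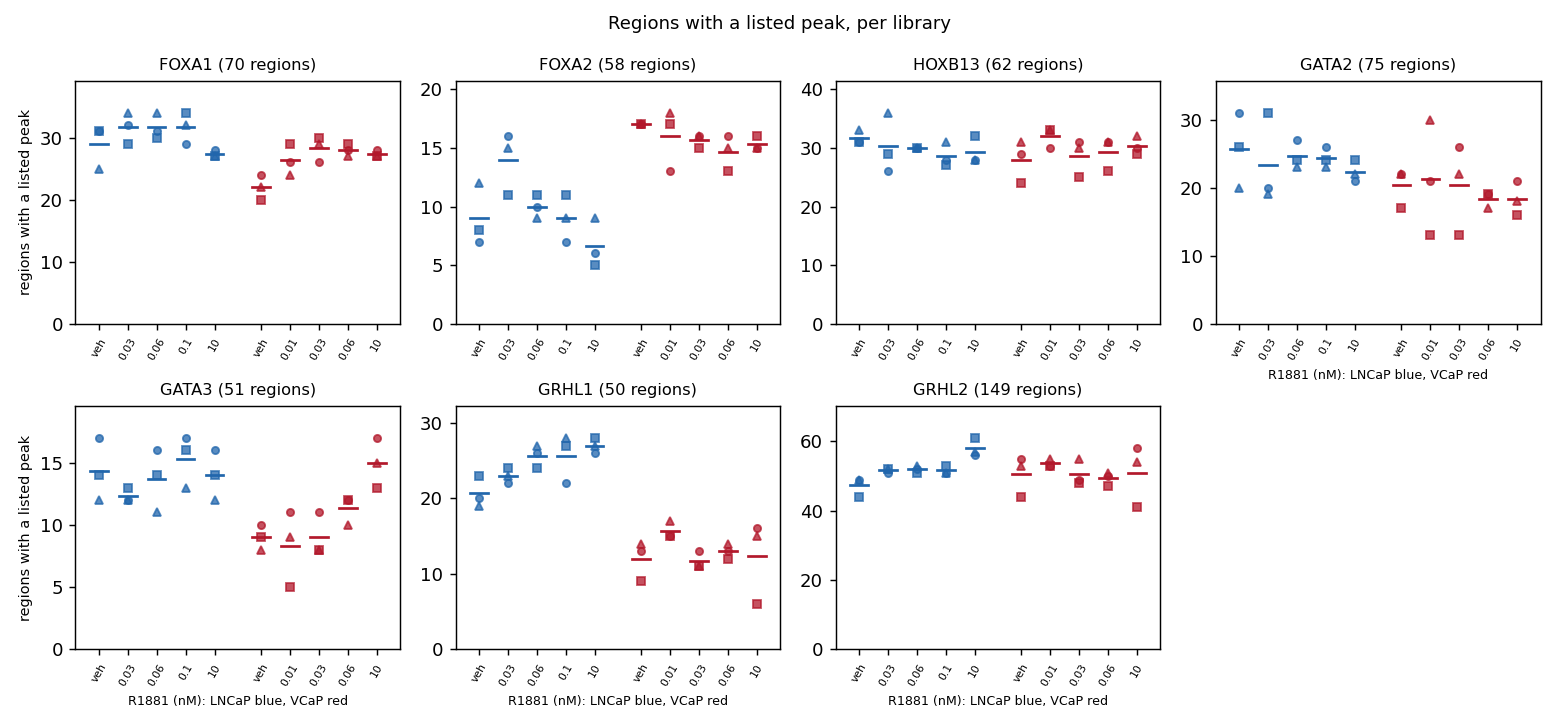
Number of regions with a listed peak (vertical axis) in each library, by R1881 dose in nM, for each gene; points are libraries, bars are group means, blue is LNCaP and red is VCaP. The LNCaP counts at GRHL2 lie at 44 to 49 with vehicle and 56 to 61 at 10 nM, and those of GATA3 in VCaP at 8 to 10 and 13 to 17.

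At 10 nM against vehicle in LNCaP, 30 of the 248 member regions that could be tested were higher and 38 were lower, by limma at an adjusted p under 0.05. Over all 188359 regions tested, 15.7% were higher and 9.62% lower, so the member regions rose at 12.1% and fell at 15.3%. The median difference was -0.35 points over the member regions and -0.14 over all. The falls were spread over all 7 loci, and the rises lay mostly at GRHL2 (16 of 72 regions), GATA3 (6 of 20) and GRHL1 (4 of 32). GRHL2 also had 10 falls, and its split was 25 higher and 4 lower with lists as deposited, 11 and 12 by fold enrichment, 7 and 4 on summit pileups and 9 and 8 when a peak's summit had to lie inside the region. FOXA1 (37 regions) and GATA2 (34) had no region that rose, with 9 and 4 that fell. HOXB13 had 3 higher and 10 lower of 38, and FOXA2 1 and 2 of 15. Some of these regions neighbour each other and carry the same wide peak: the 30 rises held 28 distinct sets of values and the 38 falls 31. The split by direction depended on the scale. With lists as deposited 45 were higher and 14 lower, and on summit pileups (for regions listed in every library) 13 and 25. Here and below, shares over all regions are given for ranks in the shortened lists alone. Splits on other scales therefore describe the member regions only and cannot be set beside a share over all regions.

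In VCaP the same contrast gave 22 higher and 10 lower of 223 tested regions, beside 6.09% and 2.63% of all 142185 regions. The median difference was 0 points for the members and -0.09 over all regions. FOXA1 and GRHL2 had 6 rises each, of 38 and 74 regions, GATA3 5 of 18, FOXA2 4 of 19 and HOXB13 1 of 33. Lower regions numbered 3 at FOXA1, 2 each at FOXA2, HOXB13 and GRHL2 and 1 at GATA2 (25 regions). Some of these falls carry the same wide peak: the 10 falls held 7 distinct sets of values, and the 22 rises held 22. The 6 FOXA1 rises were 2 when the summit had to lie inside the region, 3 by fold enrichment and 0 (with 3 falls) on summit pileups. At GRHL1 no region of 16 passed, with 1 at an unadjusted p under 0.05. On summit pileups 5 regions were higher and 15 lower. The rank at a single region is therefore given below with its value in each library.

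**Figure D2:**
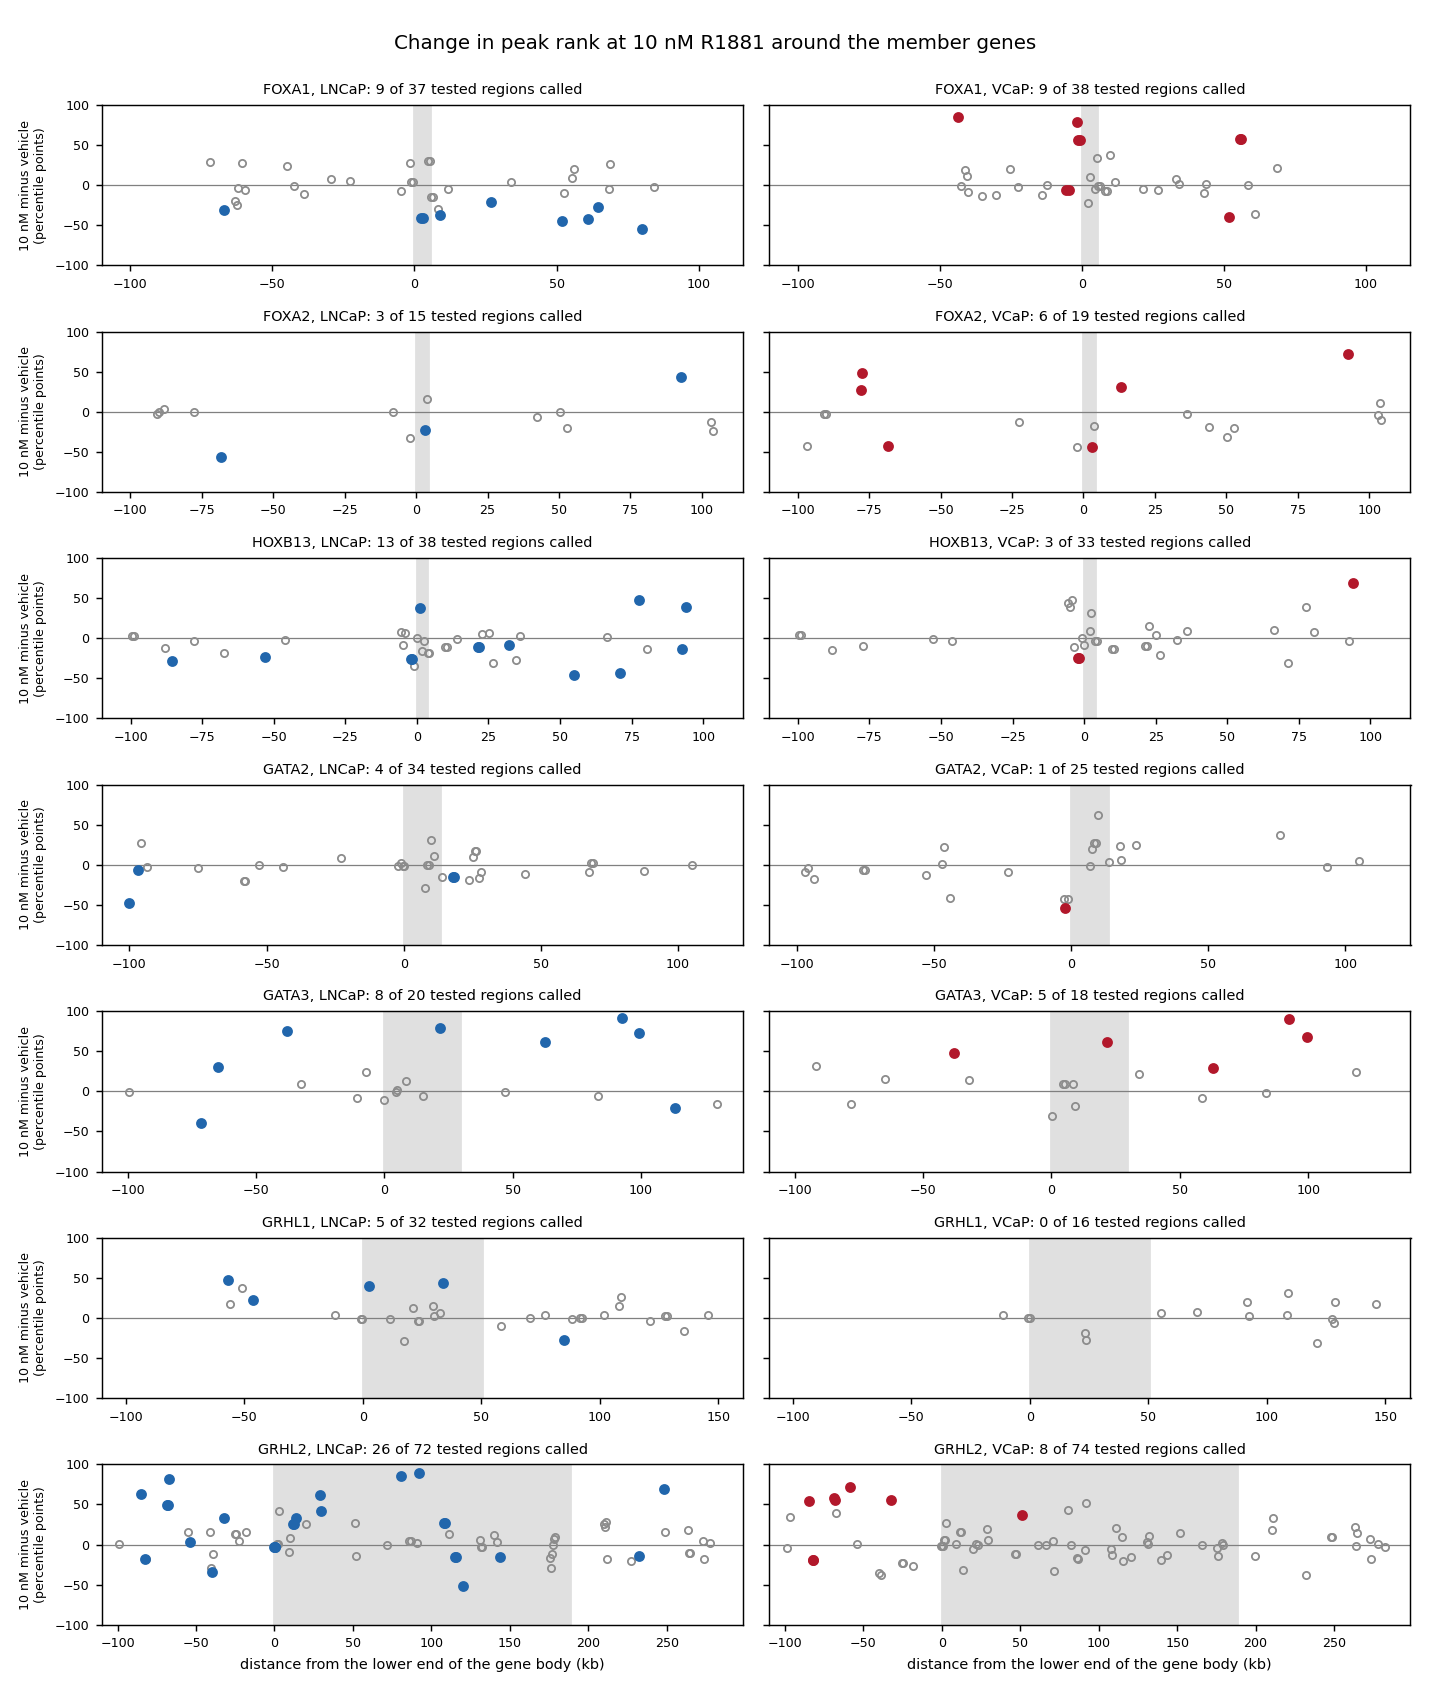
Difference in percentile rank between 10 nM and vehicle (vertical axis, rank points) against distance from the lower end of the gene body in kb, for LNCaP (left) and VCaP (right); grey bands are gene bodies, filled points have an adjusted p under 0.05 and open points do not. All 9 filled LNCaP points at FOXA1 lie below 0, and 16 of 26 at GRHL2 lie above it.

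The forkhead genes come first. FOXA1 (chr14:37589552-37595249) has the coding genes MIPOL1 and TTC6 within the 100 kb, and 14 of its 70 regions have FOXA1 as their nearest coding gene. In LNCaP at 10 nM, 9 of its 37 tested regions were lower, by 20.4 to 55.1 points, 6 of them above the gene, 2 inside it and 1 below. Ranking by fold enrichment gave 7 lower and 0 higher, but lists as deposited gave 3 higher and 2 lower and summit pileups 4 and 5.

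The largest fall was FOXA1 site 64, 74.3 kb above the gene inside TTC6 (chr14:37669305-37669805). Its ranks in LNCaP were 65.3, 70.5 and 71.6 with vehicle, 33.9, 62.5 and 55.7 at 0.03 nM, 10.2, 27.6 and 40.4 at 0.06 nM, 24.8, 8.06 and 28.4 at 0.1 nM and 0, 21.4 and 20.8 at 10 nM. All vehicle libraries lay above all others of the series of doses, and from 0.06 nM upward no library passed 40.4. The rank fell by 55.1 ± 10.7 points (SE) at 10 nM (limma, adjusted p = 0.00137), and the mean of the low doses by 36.8 ± 8.76 (adjusted p = 0.0174). The low-dose call was lost without vehicle replicate 4 (adjusted p = 0.07) or replicate 5 (0.0538). With lists as deposited the adjusted p was 0.0911 at 10 nM and 0.24 for the low doses, and with only peaks of a -log10 q of at least 5 the fall at 10 nM was -26.2. No VCaP library listed a peak there.

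FOXA1 site 54, 46.1 kb above the gene and also inside TTC6 (chr14:37641069-37641569), held its rank at low dose and lost it at 10 nM. The LNCaP values were 86.2, 85.2 and 84.2 with vehicle, 87.1, 84.5 and 85.8 at 0.03 nM, 78.2, 80.9 and 75.8 at 0.06 nM, 81.3, 75 and 69.2 at 0.1 nM and 56.3, 40.5 and 23.5 at 10 nM. Against the low doses the rank fell by 39.6 ± 4.85 points (limma, adjusted p = 5.25e-05), and against vehicle by 45.1 ± 5.94 (adjusted p = 6.01e-05). With lists as deposited the first of these was -23. The 10 nM libraries lay below all others of the line, and the low doses against vehicle gave -5.49 points (adjusted p = 0.627). VCaP libraries read 86.5, 79.5 and 85 with vehicle, 86.6, 89.7 and 80.8 at 0.01 nM, 75.7, 81.1 and 72.2 at 0.03 nM, 63.3, 83.4 and 55 at 0.06 nM and 37.2, 68.7 and 27.6 at 10 nM. There the fall against vehicle was -39.1 ± 9.02 points (limma, adjusted p = 0.0105), with replicate 2 at 10 nM inside the range of 0.06 nM. The VCaP call was lost without 10 nM replicate 4 (adjusted p = 0.0505), in a fit of the compared groups alone (0.126) and with a -log10 q of at least 5 (0.17). The falls are compared with those at other genes in the plot of falling regions.

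Rises around FOXA1 were found in VCaP. FOXA1 site 57, 50.4 kb above the gene in TTC6 (chr14:37645387-37645887), stood at 26.7, 0 and 0 with vehicle, 22.5, 0 and 9.12 at 0.01 nM, 18.5, 24.3 and 21.1 at 0.03 nM, 38, 12.6 and 41.9 at 0.06 nM and 66.9, 81.8 and 50.2 at 10 nM. All 10 nM libraries lay above all others of the line, and the rise over the low doses was 45.4 ± 11.3 points (limma, adjusted p = 0.0239). That call was lost without 10 nM replicate 1 (adjusted p = 0.124) or replicate 2 (0.164) and with lists as deposited (0.146). In LNCaP the 10 nM values were 36.5, 25.3 and 0 against 0 in every vehicle library (20.6 points, adjusted p = 0.135). FOXA1 site 12, inside MIPOL1 43.5 kb below the gene (chr14:37545817-37546317), had the largest rise by rule in VCaP, from 0, 15.5 and 0 with vehicle to 92.2, 94.2 and 84.6 at 10 nM, with 84.3 or more in 8 of the 9 low-dose libraries and 0 in the ninth. The change was 85.2 ± 17.2 points (limma, adjusted p = 0.00606), but when the summit had to lie inside the region it was 17.5 (adjusted p = 0.409), so the rank came from peaks with summits outside the region. It was 0 in all LNCaP libraries.

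The FOXA1 gene-end region, FOXA1 site 38, overlaps the promoter window printed above. In LNCaP it stood at 81.5, 80.7 and 65.4 with vehicle and at 84.2, 49.1 and 49.8 at 10 nM, a difference of -14.8 ± 8.4 points that did not pass (limma, adjusted p = 0.224). Replicate 3 at 10 nM was the highest of the 6 libraries and the other two the lowest, and without that replicate the difference was -26.4 (adjusted p = 0.00968). In VCaP the 15 libraries ran from 91.7 to 96.6, with -0.969 points at 10 nM (adjusted p = 0.804).

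FOXA2 (chr20:22580998-22585490) has no other coding gene body within the 100 kb. Its regions were sparse in LNCaP, where 15 of 58 could be tested and 2 had a peak in all 15 libraries. FOXA2 site 11, 68.2 kb below the gene (chr20:22512520-22513020), fell in both lines. LNCaP libraries read 64.3, 63.9 and 63.2 with vehicle, 57.9, 49.2 and 41.4 at 0.03 nM, 38.2, 21.1 and 26.2 at 0.06 nM, 47.9, 58.4 and 15.7 at 0.1 nM and 12.3, 0 and 8.37 at 10 nM. The 10 nM libraries lay below all others of the line, and the fall from vehicle was -56.9 ± 10.4 points (limma, adjusted p = 0.000855), -37.3 with lists as deposited and -13.3 with a -log10 q of at least 5. In VCaP the ranks were 80.2, 82.9 and 79.8 with vehicle, 63.5 to 81.8 over the low-dose libraries and 53, 0 and 61.1 at 10 nM, again with all 10 nM libraries lowest. Its fall from the low doses was -34.9 ± 9.12 points (limma, adjusted p = 0.0314). Replicate 2 at 10 nM, at 0, set much of it: without that library the value was -15.9 (adjusted p = 0.128). With a -log10 q of at least 5 it was -3.52 (adjusted p = 0.889), and the call was also lost when a peak was required in at least 8 libraries (0.0713), in a fit of the compared groups alone (0.0676) and without any 1 of 5 low-dose libraries (0.0515 to 0.0591: 0.01 nM replicates 1 and 4, 0.03 nM replicate 1, 0.06 nM replicates 1 and 2).

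Inside the FOXA2 gene, FOXA2 site 25 (chr20:22583760-22584260) stood in VCaP at 80.7, 81.7 and 80.8 with vehicle and at 51.5, 2.42 and 56.8 at 10 nM. It fell by 44.2 ± 11.4 points (limma, adjusted p = 0.0212), a call lost without 10 nM replicate 2 (-27 points, adjusted p = 0.0557) or without any 1 vehicle library (0.0525 to 0.0589), in a fit of the compared groups alone (0.193), by fold enrichment (0.0533) and with a -log10 q of at least 5 (-18.5 points, 0.0597). In LNCaP it went from 61.9, 60.9 and 54.5 to 30.9, 40.9 and 35.8 (-23.2 ± 7.3 points, adjusted p = 0.0295). Of the rises at this locus, 1 in LNCaP and 4 in VCaP, the largest in each line was FOXA2 site 52, 88.2 kb above the gene (chr20:22673397-22673897), which was 0 in the vehicle libraries of both lines. At 10 nM it read 39.4, 38.9 and 52.9 in LNCaP (adjusted p = 0.0238) and 80.7, 59.2 and 75.9 in VCaP (adjusted p = 0.0123, both limma). The LNCaP call was lost without 10 nM replicate 4 or 5 or vehicle replicate 3 or 4 (adjusted p 0.051 to 0.0954), and the VCaP call without 10 nM replicate 1 (0.0627) or 4 (0.0517). Next to the gene end, FOXA2 site 24 (chr20:22578437-22578937) fell in LNCaP by 34.3 ± 10.4 points against the low doses (limma, adjusted p = 0.0382), from 44.9, 21.9 and 28.9 at 0.1 nM to 8.04, 0 and 0 at 10 nM. That call was lost without any 1 of the 10 nM libraries (adjusted p 0.0808 to 0.165) or any 1 of 5 low-dose libraries (0.0532 to 0.0642: 0.03 nM replicate 4, all at 0.06 nM and 0.1 nM replicate 3), by fold enrichment (0.052) and with lists as deposited (-20.7 points, 0.31). The gene-end region passed in neither line (adjusted p = 0.619 and 0.766).

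**Figure D3:**
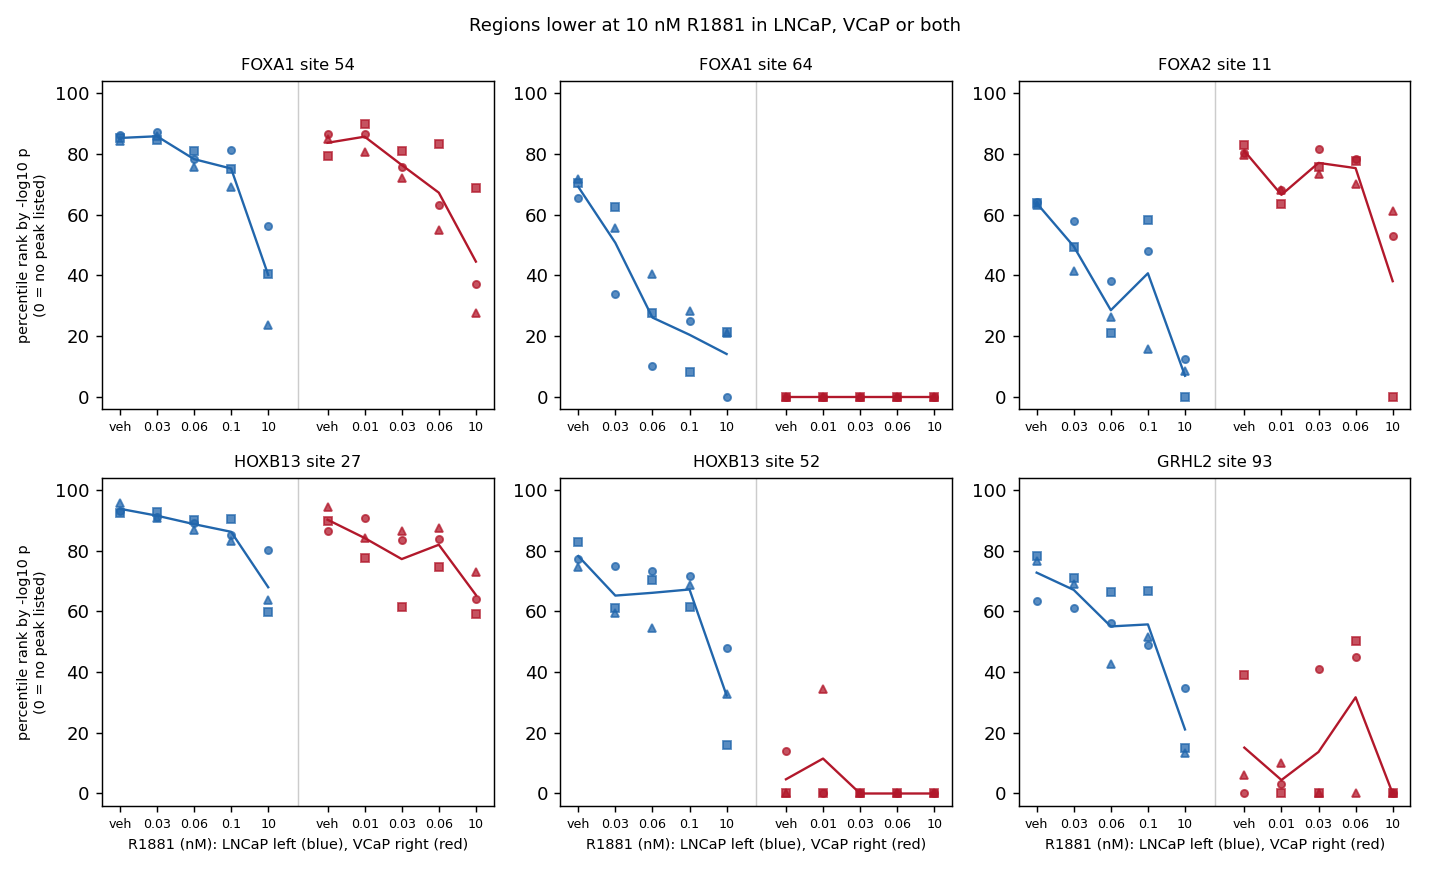
Percentile rank (vertical axis, 0 where no peak was listed) in each library by R1881 dose in nM at 6 regions that fell; marker shapes are replicates, lines join group means, blue is LNCaP and red is VCaP. FOXA1 site 54 and HOXB13 site 27 fell at 10 nM in both lines, while FOXA1 site 64 was at 0 in all VCaP libraries.

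Among the GATA genes, GATA3 (chr10:8045333-8075198) carried the largest rise of all member regions tested at 10 nM in each line. GATA3 site 43, 62.7 kb above the gene (chr10:8137680-8138180), was at 0 in all 6 vehicle libraries. In LNCaP its ranks were 23, 0 and 8.68 at 0.03 nM, 46.1, 7.14 and 23.8 at 0.06 nM, 64.6, 65.8 and 49.2 at 0.1 nM and 90.8, 90.7 and 92.4 at 10 nM. VCaP had 0 in all 0.01 nM libraries, then 57.4, 31.9 and 74.5 at 0.03 nM, 83.5, 80.8 and 85.5 at 0.06 nM and 90.8, 89.3 and 92.2 at 10 nM. In each line the 10 nM libraries lay above all others. The rise at 10 nM was 91.3 ± 10.1 points in LNCaP (adjusted p = 1.49e-05) and 90.8 ± 12.3 in VCaP (adjusted p = 0.000459, both limma), the latter 60.2 with a -log10 q of at least 5. In the lists as deposited, which are longer, 1 of 3 LNCaP vehicle libraries and 0 of 3 VCaP vehicle libraries had a peak there.

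GATA3 site 45, 69.5 kb above the gene (chr10:8144475-8144975), was higher over the low doses in both lines. LNCaP libraries read 23.8, 0 and 41.3 with vehicle, 86, 69 and 79.4 at 0.03 nM, 85.9, 82.9 and 90.5 at 0.06 nM, 90.1, 88.1 and 91.7 at 0.1 nM and 91.8, 96.8 and 96.7 at 10 nM. Every treated library lay above every vehicle library, and the low doses rose by 63.1 ± 6.01 points (limma, adjusted p = 6.4e-06). VCaP gave 45.9, 0 and 0 with vehicle, 53.5, 53.5 and 50.4 at 0.01 nM, 70.4, 71.7 and 57.3 at 0.03 nM, 81.1, 75.2 and 78.5 at 0.06 nM and 83.4, 87.1 and 80.7 at 10 nM. Its low-dose rise was 50.5 ± 9.12 points (limma, adjusted p = 0.0134) and was not called in a fit of the compared groups alone (0.0914) or with a -log10 q of at least 5 (2.88 points, 0.895). Here too every treated library lay above every vehicle library.

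Inside the gene, GATA3 site 28 (chr10:8066630-8067130) was 0 with vehicle in both lines. LNCaP reached 54.2, 56.2 and 50.3 at 0.1 nM and 81.5, 80.1 and 75.5 at 10 nM (79 ± 9.79 points from vehicle, limma adjusted p = 3.72e-05). In VCaP 1 of 9 low-dose libraries listed it, at 30.6, and at 10 nM the ranks were 57.9, 65.5 and 62.8 (58.7 ± 8.51 over the low doses, adjusted p = 0.000398). GATA3 sites 12 and 37 were picked after their values were seen, because a peak was listed in all 3 libraries at 10 nM and in no vehicle library in both lines. Site 12 lies in TAF3, 38 kb below the gene, and rose by 75.5 ± 10.3 points in LNCaP and 48.2 ± 9.69 in VCaP. Site 37 lies 32.9 kb above it and rose by 61.7 ± 8.26 and 29.3 ± 8.05, the largest of these 4 adjusted p being 0.0296 (limma). In the shortened VCaP lists neither was listed at any low dose, while in LNCaP both were listed in all 3 libraries at 0.1 nM.

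The count of 6 rises at GATA3 in LNCaP was 7 with lists as deposited and 1 on summit pileups, where regions at 0 in any library cannot be tested. By fold enrichment it was 6 in each line. The larger of 2 falls at GATA3 in LNCaP was site 7 in TAF3, 71.6 kb below, from 72.7, 71 and 52.5 with vehicle to 37.7, 33.1 and 8.37 at 10 nM in LNCaP (-39 ± 10.1 points, limma adjusted p = 0.00972). The call was lost without 10 nM replicate 5 (0.0525), in a fit of the compared groups alone (0.0539) and with a -log10 q of at least 5 (-21.7 points, 0.236), and the fall was -19.6 with lists as deposited. The gene-end region, which overlaps the GATA3 promoter window printed above, did not follow the rises. Its ranks in LNCaP were 12.6, 13.4 and 4.8 with vehicle and 0 in all 10 nM libraries (adjusted p = 0.437). In VCaP they were 57.4, 56.7 and 44.6 with vehicle and 30.1, 0 and 35 at 10 nM, a difference of -31.2 ± 13.2 points (limma, adjusted p = 0.171).

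**Figure D4:**
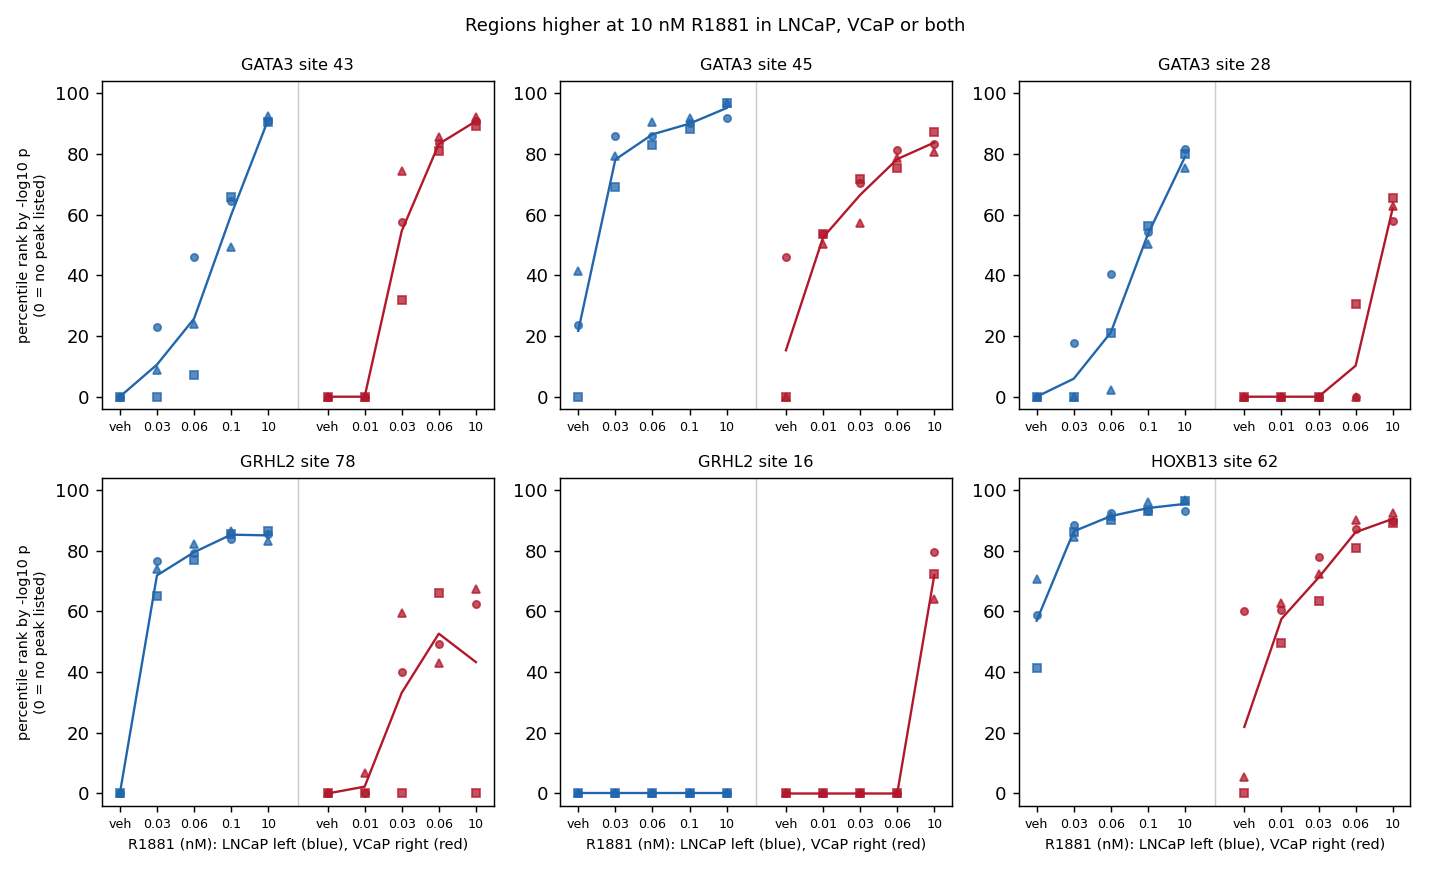
Percentile rank (vertical axis, 0 where no peak was listed) in each library by R1881 dose in nM at 6 regions that rose; marker shapes are replicates, lines join group means, blue is LNCaP and red is VCaP. GATA3 site 43 went from 0 in all vehicle libraries to 89.3 or more in all 6 libraries at 10 nM, and GRHL2 site 16 was listed in VCaP at 10 nM alone.

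GATA2 (chr3:128479422-128493201), the GATA factor best known in prostate luminal cells, had no region that rose at 10 nM in either line (limma, with 6 of 34 LNCaP and 7 of 25 VCaP regions at an unadjusted p under 0.05 in either direction). Lists as deposited gave 1 higher in each line, summit pileups 1 in VCaP and summits inside the region 1 in LNCaP. The largest fall in LNCaP, GATA2 site 1, lies 100 kb below the gene inside EEFSEC (chr3:128379219-128379719), at the edge of the distance taken. Its LNCaP ranks were 48, 49 and 47.1 with vehicle, 0, 25.1 and 0 at 0.03 nM, 0, 0 and 37.3 at 0.06 nM and 0 in all libraries at 0.1 and 10 nM. The 3 vehicle libraries lay above all 12 treated ones. The rank fell by 48 ± 10 points at 10 nM (limma, adjusted p = 0.00228) and by 41.1 ± 8.19 over the low doses (adjusted p = 0.0051). By fold enrichment neither call held (-7.54 points, adjusted p = 0.0874, and 0.131), and the low-dose call was also lost with lists as deposited (0.0753). VCaP had no peak there in any library.

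Closer to the gene, GATA2 site 41, 4.65 kb above it (chr3:128497601-128498101), stood in LNCaP at 81.2, 83.3 and 65.3 with vehicle, 71.2 to 84.2 over the low-dose libraries and 59.1, 67.3 and 57.8 at 10 nM. The 10 nM libraries lay below all low-dose libraries, with -16.3 ± 4 points (limma, adjusted p = 0.0115). The call was lost without 10 nM replicate 3 (adjusted p = 0.0542) or 5 (0.0824), with lists as deposited (-8.13 points, 0.129) and by fold enrichment (0.0554), and the fall was -38.7 with a -log10 q of at least 5. In VCaP the 10 nM libraries read 76.6, 75.4 and 82.4 and the vehicle libraries 85.3, 51 and 78 (adjusted p = 0.666). The gene-end region of GATA2 differed by -15.1 ± 6.45 points in LNCaP and 3.55 ± 9.71 in VCaP, and neither passed (limma, adjusted p = 0.104 and 0.907). Without LNCaP vehicle replicate 5 the LNCaP value was -22.3 (adjusted p = 0.00842). The single VCaP fall at this locus lies 2.02 kb below the gene and was looked up after the counts were seen. It went from 65.5, 62.2 and 64.1 with vehicle to 6.88, 0 and 22.9 at 10 nM (adjusted p = 0.023), and the call was lost when peaks not covering the middle base were ignored.

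HOXB13 (chr17:48724763-48728750), a homeobox factor of the prostate lineage, shares its surroundings with HOXB9, PRAC2, PRAC1 and TTLL6. HOXB13 is the nearest coding gene for 9 of the 62 regions. The region that rose in both lines, HOXB13 site 62, lies 90.1 kb above the gene and 1.58 kb from TTLL6 (chr17:48818556-48819056). LNCaP libraries read 58.7, 41.3 and 70.8 with vehicle, 88.3, 86.2 and 84.6 at 0.03 nM, 92.5, 90.1 and 91.6 at 0.06 nM, 92.9, 93 and 96.1 at 0.1 nM and 93, 96.5 and 96.8 at 10 nM. Most of the rise was present at 0.03 nM: the low doses differed from vehicle by 33.7 ± 4.02 points (limma, adjusted p = 8.73e-05) and 10 nM by 38.5 ± 4.92 (adjusted p = 6.2e-05). In VCaP the ranks were 60.3, 0 and 5.51 with vehicle, 60.4, 49.5 and 62.6 at 0.01 nM, 77.8, 63.3 and 72.2 at 0.03 nM, 87.2, 80.9 and 90.2 at 0.06 nM and 89.8, 89.2 and 92.4 at 10 nM. Vehicle replicate 1 overlapped the 0.01 nM libraries there, and the 2 shallow vehicle libraries were at 60.3 and 0. The VCaP rise was 68.5 ± 11.7 points at 10 nM (limma, adjusted p = 0.00162, and 0.0824 in a fit of the compared groups alone) and 49.6 ± 9.59 over the low doses (adjusted p = 0.0212). The low-dose call was lost without vehicle replicate 2 (0.0868) or 4 (0.0571) or 0.06 nM replicate 1 (0.0526) or 4 (0.0549), in a fit of the compared groups alone (0.107), by fold enrichment (0.136) and with a -log10 q of at least 5 (13.8 points, 0.576).

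Of the 10 regions that fell around HOXB13 in LNCaP at 10 nM, 4 lie below the gene and 6 above. HOXB13 site 27, in PRAC2 2.17 kb below (chr17:48722338-48722838), was among the strongest peaks of vehicle cells. It went from 93.2, 92.5 and 95.7 with vehicle to 80.3, 59.9 and 63.6 at 10 nM in LNCaP, with all 12 other libraries between 83.1 and 95.7. The fall was -25.9 ± 3.77 points (limma, adjusted p = 0.00014). VCaP went from 86.6, 89.7 and 94.3 to 64.1, 59.1 and 73, by -24.8 ± 5.95 points (adjusted p = 0.0136). That call was lost when the summit had to lie in the region (0.184), without 10 nM replicate 2 (0.058) or vehicle replicate 4 (0.053) and by fold enrichment (0.0748), and the fall was -57.8 with a -log10 q of at least 5. In VCaP 1 low-dose library, at 61.6, lay within the 10 nM range. HOXB13 site 52, in TTLL6 50.9 kb above (chr17:48779364-48779864), had the largest fall in LNCaP, from 77.3, 82.8 and 74.6 with vehicle to 48, 15.9 and 32.9 at 10 nM (-45.9 ± 7.67 points, limma adjusted p = 0.000418, and -25.9 with lists as deposited). Every one of its 10 nM libraries lay below every low-dose library.

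The largest HOXB13 rise in LNCaP was site 57, in TTLL6 73.6 kb above (chr17:48802051-48802551), from 38.6, 35.8 and 0 with vehicle to 78, 76.5 and 64.2 at 10 nM (48.1 ± 10 points, limma adjusted p = 0.00221). The low-dose libraries, at 46.8 to 78.1, were already above all vehicle libraries. Inside the gene, HOXB13 site 31 (chr17:48725519-48726019) was 0 in 11 of the 12 LNCaP libraries below 10 nM and 5.13 in the other, and read 28.9, 42.5 and 40.3 at 10 nM (36.7 ± 4.14 over the low doses, adjusted p = 2.71e-05). Ranked by fold enrichment that difference was 0.54 points (adjusted p = 0.873), so this call rests on the -log10 p. The gene-end region did not pass in either line (LNCaP -18.9 ± 10.8 points, adjusted p = 0.234, and VCaP -3.26 ± 6.9, adjusted p = 0.861).

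The grainyhead genes follow. GRHL2 (chr8:101492439-101681200) is a long gene, and 78 of its 149 regions lie inside it. GRHL2 site 78, inside the gene (chr8:101572736-101573236), had the smallest adjusted p of all member regions for the low doses in LNCaP. No vehicle library listed it, and the ranks were 76.7, 65 and 73.9 at 0.03 nM, 79.4, 77 and 82.1 at 0.06 nM, 83.7, 85.5 and 86.6 at 0.1 nM and 85.5, 86.5 and 83.1 at 10 nM. The low doses differed from vehicle by 78.9 ± 3.35 points (limma, adjusted p = 1.6e-09; 49.4 with a -log10 q of at least 5), and the 10 nM libraries fell within the range of those at 0.06 and 0.1 nM. VCaP read 0 with vehicle, 0, 0 and 6.78 at 0.01 nM, 40, 0 and 59.6 at 0.03 nM, 49.2, 66 and 42.8 at 0.06 nM and 62.5, 0 and 67.3 at 10 nM. Replicate 2 at 10 nM was at 0, as were 2 libraries at 0.01 nM and 1 at 0.03 nM, and the change at 10 nM did not pass (43.3 ± 17.8 points, adjusted p = 0.159).

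A larger rise by rank, GRHL2 site 83 in the gene (chr8:101584436-101584936), went from 0 with vehicle to 90.1, 89 and 90.2 at 10 nM in LNCaP (89.8 ± 17.6 points, limma adjusted p = 0.00146). With the summit required inside the region the difference was 1.10 (adjusted p = 0.975), so the rank came from peaks with summits outside it. The largest fall in the gene was GRHL2 site 93 (chr8:101612639-101613139), with LNCaP ranks of 63.3, 78.2 and 76.7 with vehicle, 61.2, 70.9 and 69.1 at 0.03 nM, 56.2, 66.2 and 42.7 at 0.06 nM, 48.9, 66.6 and 51.6 at 0.1 nM and 34.9, 15.1 and 13.2 at 10 nM. All 10 nM libraries lay below all others, and the fall from vehicle was -51.7 ± 8.19 points (limma, adjusted p = 0.000274), or -28.2 with lists as deposited. In VCaP this region was listed in none of the 10 nM libraries and at 39.2 or less in 2 of 3 vehicle libraries (adjusted p = 0.619).

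GRHL2 site 16, 58.3 kb below the gene (chr8:101433912-101434412), was listed in VCaP at 10 nM alone, at 79.4, 72.3 and 64.2, and in none of the other 12 VCaP or the 15 LNCaP libraries. Its rise was 72 ± 9.34 points (limma, adjusted p = 0.000352), and 1 VCaP library at 0.06 nM had a peak there in the full deposited list. In the same stretch, GRHL2 site 7, 82.3 kb below (chr8:101409878-101410378), fell in VCaP from 96.4, 91.3 and 90.7 with vehicle to 70.5, 78.9 and 69.7 at 10 nM (-19.8 ± 2.67 points, adjusted p = 0.000442, and -66 with a -log10 q of at least 5), below all 12 other libraries. Its LNCaP ranks went from 57.6, 61.4 and 73.6 to 50, 50.9 and 38.6 (-17.7 ± 5.2 points, adjusted p = 0.0208). GRHL2 site 6 was picked after its values were seen, since it lies within 3 kb of site 7 and moved the other way. It rose by 62.8 ± 10.6 points in LNCaP (adjusted p = 0.000461) and by 54.5 ± 13.5 in VCaP (adjusted p = 0.0164, both limma). At the gene end GRHL2 was among the strongest peaks in both lines: LNCaP read 95, 95.4 and 96.3 with vehicle and 91.4, 94.6 and 91.2 at 10 nM (-3.16 ± 1.02 points, adjusted p = 0.0338). The call was lost without 10 nM replicate 3 or 5 or vehicle replicate 4 or 5 (0.0664 to 0.137), in a fit of the compared groups alone (0.124), with lists as deposited (0.505), with the centre base covered (0.943) and on summit pileups (0.573), and by fold enrichment the fall was -37.1 and with a -log10 q of at least 5 it was -7.56.

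GRHL1 (chr2:9951693-10002277) is flanked by TAF1B, KLF11 and CYS1. In LNCaP 4 of its 32 regions rose and 1 fell at 10 nM, and on summit pileups 0 rose and 2 fell. GRHL1 site 3, in TAF1B 56.7 kb below (chr2:9894756-9895256), was 0 in 11 of the 12 libraries below 10 nM, 41.3 in 1 at 0.1 nM, and 25.8, 54 and 62.7 at 10 nM (47.5 ± 11 points, limma adjusted p = 0.00485). The 0.1 nM library lay inside the 10 nM range. A pair of further rises inside the gene were looked up after the counts were seen: site 10 by 39.8 ± 6.58 points (adjusted p = 0.000382) and site 19 by 43.1 ± 9.5 (adjusted p = 0.00336). None of these 3 was listed in VCaP above a rank of 0.37. The GRHL1 gene-end region was among the strongest in LNCaP in every group (96.8, 97.6 and 90.2 with vehicle, 97, 93.8 and 89.7 at 10 nM, adjusted p = 0.768).

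As a set, the low doses changed fewer member regions than 10 nM. In LNCaP 15 of 248 were higher and 4 lower than vehicle (limma, adjusted p under 0.05), beside 5.74% and 1.51% of all regions. The rises were 9 at GRHL2, 3 at GATA3, 2 at HOXB13 and 1 at FOXA1, and the falls 2 at FOXA1 and 1 each at HOXB13 and GATA2. By single dose, 3 rose and 1 fell at 0.03 nM (background 2.02% and 0.255%), 13 and 3 at 0.06 nM (4.69% and 0.591%) and 18 and 7 at 0.1 nM (7.05% and 2%). These contrasts share their vehicle libraries. Against the low doses, 10 nM gave 14 higher and 23 lower (8.88% and 5.78% of all regions), the falls being 6 each at HOXB13 and GRHL2, 4 at FOXA1, 3 at GATA2, 2 at FOXA2 and 1 each at GATA3 and GRHL1. With lists as deposited that split was 22 higher and 10 lower, and for the low doses against vehicle it was 18 and 2, or 8 and 4 on summit pileups.

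In VCaP the low doses gave 5 higher and 0 lower of 223 (0.48% and 0.165% of all regions), 2 at GATA3 and 1 each at FOXA1, HOXB13 and GRHL2. At a single dose, 0 regions passed at 0.01 nM (background 0.0267% and 0.00281%) and 0.03 nM (0.2% and 0.0295%), with 16 and 23 at an unadjusted p under 0.05. At 0.06 nM 6 were higher and 0 lower (0.857% and 0.166%). The VCaP low-dose counts fell to 1 without vehicle replicate 2 and to 0 in a fit of the compared groups alone. Between 10 nM and the low doses 12 were higher and 6 lower (4.01% and 1.14%), 4 of the rises each at FOXA1 and GATA3, 3 at GRHL2 and 1 at FOXA2. With lists as deposited that split was 8 and 10, and on summit pileups 6 and 7.

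Some regions were listed at 10 nM and not with vehicle. A peak in all 3 libraries at 10 nM and in none with vehicle was found at 18 of 248 LNCaP regions (10.3% of all regions) and at 14 of 223 in VCaP (4.95%). Of these, 8 and 5 lay at GRHL2 and 4 and 6 at GATA3. The reverse was found at 4 LNCaP regions (2.32%), 1 each at GATA2, GATA3, GRHL2 and HOXB13, and at 1 in VCaP (1.59%), at FOXA2. At 0, a region may still hold signal under the authors' threshold.

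The lines used separate libraries, so their calls at 10 nM could be set side by side at the 169 member regions tested in both. Higher in both were 11 regions, 36.7% of the 30 LNCaP rises and 50% of the 22 VCaP rises: 5 at GATA3, 4 at GRHL2 and 1 each at HOXB13 and FOXA2. Over all regions the shares were 18.9% and 64.5%. Each share here and below is of all calls in a line, including calls at regions that could not be tested in the other line. Lower in both were 6 regions, 15.8% of 38 and 60% of 10: 2 each at HOXB13 and FOXA2 and 1 each at FOXA1 and GRHL2. Each region was counted, also where neighbours carried the same wide peak (the 10 VCaP falls held 7 distinct sets of values). For all regions these shares were 8.97% and 43.5%. No member region was called in opposite directions. The overlap was not tested.

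The 2 lines' responses to 10 nM were compared directly at 144 member regions, with all 30 lists shortened to 104726 entries. The response was greater in VCaP at 2 regions and greater in LNCaP at 0 (limma, adjusted p under 0.05, beside 1.11% and 1.69% of all regions). FOXA1 site 57 changed by 50 ± 12.3 points more in VCaP (adjusted p = 0.0238), and GRHL2 site 25, 32.1 kb below GRHL2 (chr8:101460084-101460584), by 41 ± 10.4 (adjusted p = 0.0299). In that fit LNCaP at 10 nM read 10.1, 15.8 and 18.3 at GRHL2 site 25 and 18.3, 3.85 and 0 at FOXA1 site 57. The longer LNCaP lists gave higher ranks at both wherever a peak was listed. The part of list length in these 2 differences was not tested. On the lists of each line, GRHL2 site 25 was 0 below 10 nM in LNCaP and 30.1, 34.6 and 36.5 at 10 nM. VCaP had 21.3, 0 and 46.3 at 0.06 nM and 61.4, 41.9 and 63.9 at 10 nM, and 0 below that. Neither call held with lists as deposited (adjusted p = 0.699 and 0.647) or in a fit of the compared groups alone (0.131 and 0.0856).

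In level, at the doses both lines received (vehicle, 0.03, 0.06 and 10 nM), VCaP was higher at 84 and lower at 69 of 273 member regions, beside 22.6% and 33.9% of all regions (limma). Line, medium, cell number and library batch cannot be told apart here. Full deposited lists gave 73 higher and 107 lower, and on summit pileups 27 and 10, so the number of calls in each direction depended on the scale. The 2 loci that kept their side under these scalings were FOXA2 and GRHL1. FOXA2 was higher in VCaP at 14 of 19 regions and lower at 0 (15 and 0 as deposited, 2 and 0 on pileups), and GRHL1 lower at 21 of 30 and higher at 2 (25 and 3, then 5 and 0). The median difference was 21.8 points at FOXA2, -14.3 at GRHL1 and -1.87 over all regions. FOXA1 was 18 higher and 11 lower, but 17 and 19 as deposited.

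Most of the regions that differed most by line were near absent in one of them, but with vehicle GATA2 site 4 and HOXB13 site 56 were not. Values in the next sentences are on lists all shortened to 104726 entries, as in the fit. With vehicle, GATA2 site 4 read 0, 36.9 and 47.9 in VCaP, and HOXB13 site 56 read 12.7, 27.1 and 40.8 in LNCaP. In VCaP GATA2 site 4 was 0 in all libraries at 0.06 nM and read 0, 6.65 and 26.6 at 10 nM. In LNCaP HOXB13 site 56 was 0 in all libraries at 0.06 and 10 nM. FOXA2 site 5, 90 kb below the gene (chr20:22490732-22491232), ran from 93.3 to 98.3 over the 15 VCaP libraries. In LNCaP it was 0 with vehicle and at 10 nM and between 0 and 17.1 at the low doses, a difference in level of 93.1 ± 2.51 points (limma, adjusted p = 6.97e-20). FOXA1 site 29, 5.64 kb below FOXA1 (chr14:37583666-37584166), differed by 91.2 ± 3.27 (adjusted p = 1.29e-17), with 89.4 to 97.3 in VCaP and 0 in 14 of 15 LNCaP libraries (59.9 by fold enrichment). GRHL1 site 22, 7.8 kb above GRHL1 (chr2:10009826-10010326), went the other way (-65.4 ± 3.02, adjusted p = 2.07e-15), with 49.5 to 81.2 in LNCaP and no peak in VCaP. At GATA2 site 4 in EEFSEC the difference was -76.5 ± 5.34 (-46 by fold enrichment and -45.2 with a -log10 q of at least 5), at GATA3 site 24 inside GATA3 63.5 ± 3.53, at GRHL2 site 2 51.4 ± 5.07 and at HOXB13 site 56 in TTLL6 50.4 ± 4.76 points, the last being 1.48 (adjusted p = 0.433) with a -log10 q of at least 5. The gene-end regions of FOXA1 (28.1 points) and GATA3 (36.5) also stood higher in VCaP, but not every gene end did. At 10 nM the GRHL1 gene-end region read 96.2, 92.1 and 86.7 in LNCaP and 82.4, 76.4 and 82.3 in VCaP.

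**Figure D5:**
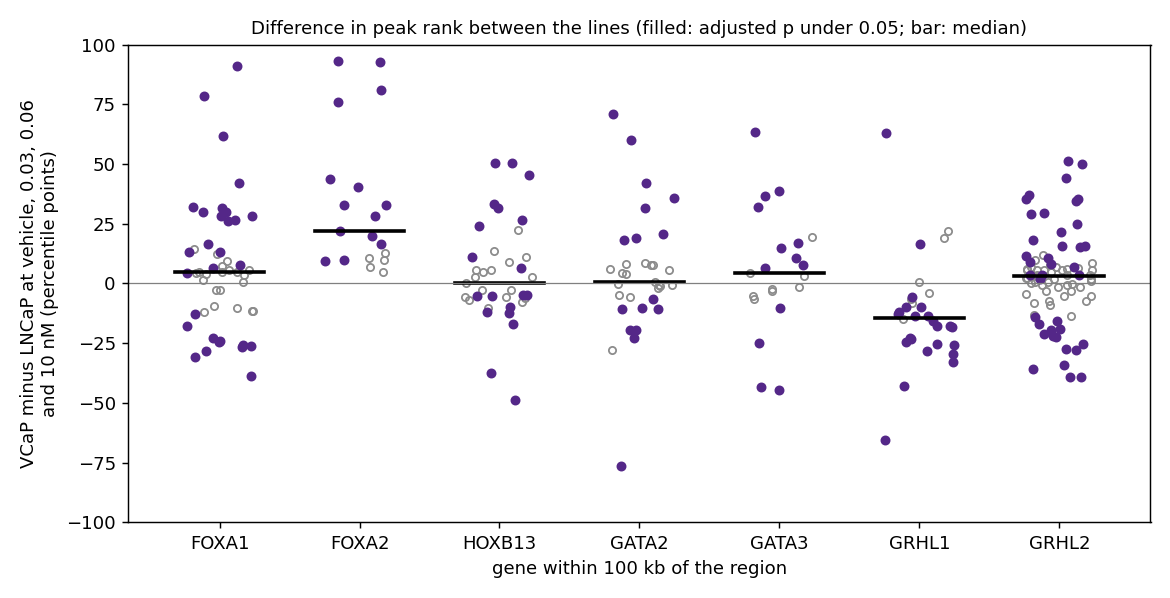
Difference in percentile rank between VCaP and LNCaP over the shared doses (vertical axis, rank points) for each tested region, by gene; filled points have an adjusted p under 0.05, open points do not, and bars are medians. At FOXA2 the 14 filled points lie above 0, and at GRHL1 21 of 23 lie below it.

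Other genes of the same families were set beside the 7. In LNCaP at 10 nM, the 9 paralogs (FOXA3, GATA1, GATA4, GATA5, GATA6, GRHL3, HOXA13, HOXC13 and HOXD13) had 19 higher and 21 lower of 216 regions (8.8% and 9.72%). Over all regions these shares were 15.7% and 9.62%. Of the 9 paralogs 7 had at least 1 rise and 7 at least 1 fall, among them GATA1 with 5 rises of 14 regions and HOXC13 with 6 falls of 33. In VCaP the paralogs had 3 higher and 5 lower of 229 (1.31% and 2.18%), beside 6.09% and 2.63% of all regions. The paralogs were not tested against the 7 genes.

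By the mean rank of all regions within 100 kb, GATA3 went from 5.55 with vehicle to 11.6 at 10 nM in LNCaP and from 7.16 to 13.5 in VCaP. FOXA1 went from 16.7 with vehicle to 12.2 at 10 nM in LNCaP, with 19.78, 17.48 and 15.98 at 0.03, 0.06 and 0.1 nM. In VCaP it read 17.9 with vehicle, 22.35 at 0.01 nM, 21.84 at 0.03 nM, 21.67 at 0.06 nM and 22.5 at 10 nM. Only the vehicle mean stood apart there, and that group holds the shallowest VCaP libraries. The part of depth in this was not tested. Over the FOXA1 regions tested in VCaP, the median difference between 10 nM and vehicle was -0.48 points. The gene whose 10 group means were most alike, of 19306 searched, was RNF112 for GATA3 (Pearson r = 0.974), SLC22A3 for FOXA1 (0.951), GFI1 for HOXB13 (0.975), ZNF800 for GATA2 (0.981), TDRD5 for FOXA2 (0.998), VPS9D1 for GRHL1 (0.994) and UBE3C for GRHL2 (0.96). These values describe 10 group means that share lines and libraries.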

How the data were processed

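Omni-ATAC-seq libraries of 2 cell lines were analysed from 30 deposited peak lists, 1 per library, with replicates not pooled. Per the submitters' processing notes, the build was GRCh38 (hg38) and the tools included MACS2 2.2.7.1, BWA 0.7.17, deepTools 3.5.1 and Trimmomatic 0.39. Peak caller settings are not given in the sources used here. The authors' lists give a -log10 p and a -log10 q per summit, a fold enrichment (a ratio to local background in the same library) and a score, the whole part of 10 times the -log10 p. A deposited summit offset, in bp, placed each summit.

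Group and replicate came from the sample labels. Windows were placed on summits of chromosomes 1 to 22 and X, strongest first. Each peak gave its percentile rank by -log10 p to every region it overlapped by at least 1 bp. A region listed in 3 or more of the 15 libraries was tested with limma 3.58.1 (R 4.3.3, trend and robust), 5 group means per line, two-sided, with Benjamini-Hochberg adjustment over all tested regions of a contrast. The level comparison took regions with a peak in at least 3 libraries of either line. The fit was tested on simulated data. Errors are SE. Peak lists carry no read counts, so no counting interval can be given. Pileups were solved from fold enrichment and -log10 p, and came within 0.05 of a whole number for 100% of peaks.

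Named regions followed a rule. Per gene and line they are the called regions of largest rise and largest fall at 10 nM, of largest change for the low doses and for 10 nM against low doses, and the gene-end region of highest mean rank. For each line test the region of largest difference was added. A call had to hold with the region's centre base covered. The members and lists were chosen with earlier results of these data known. The alternatives were an 8-library filter, the compared groups alone, a replicate block, each library left out, lists as deposited, centre-base overlap, a -log10 q of at least 5, fold enrichment as the rank and summit pileups. A summit inside the region was added after seeing the data, since wide peaks were shared by neighbouring regions. Windows reach 250 bp to either side of a summit, where the plan gave a width of 500 bp. Promoter windows came from RefSeq (GRCh38.p14), and sequence of other regions and exon positions were not used here. Some markers and 1 further gene list are not reported here.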

Additional observations from a re-analysis of the deposited data

Results flagged for a closer look

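At 2 regions the change from vehicle to 10 nM differed between LNCaP and VCaP by a test of that difference. At FOXA1 site 57, 50.4 kb above FOXA1 inside TTC6, the change was 50.03 points larger in VCaP (limma, adjusted p = 0.0238), with 10 nM above every other VCaP library. Without LNCaP 10 nM replicate 5 it was 46.3 (adjusted p = 0.085), without VCaP 10 nM replicate 2 it was 42.3 (0.0773), and without VCaP vehicle replicate 2 or 4 the adjusted p was 0.0615 or 0.0535. At GRHL2 site 25, 32.1 kb below GRHL2, the change was 41.0 points larger in VCaP (limma, adjusted p = 0.0299), and the region rose in each line alone. Without VCaP 10 nM replicate 1 it was 38.2 (0.0779) and without replicate 4 it was 36.9 (0.0815). By fold enrichment it was 32.9 (0.121), and without any 1 LNCaP vehicle library, or VCaP vehicle replicate 1 or 2, the adjusted p was 0.0517 to 0.0609. Neither difference was called with lists as deposited, at 19.3 points for FOXA1 site 57 and 19.2 for GRHL2 site 25. VCaP vehicle replicates 1 and 2 are the shallowest libraries, and the part of depth in these differences was not tested.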

How the results depend on the processing

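Counts of called member regions kept within 1.5 times of those reported except as follows. At 10 nM against vehicle, LNCaP (68 called) had 44 in a fit of the compared groups alone, 45 with a -log10 q of at least 5 and 38 on pileups, and VCaP (32) had 18, 18 and 20. For the low doses, LNCaP (19) had 12 on pileups, and VCaP (5) had 0 with the compared groups alone (22 at an unadjusted p under 0.05), 3 with the centre base covered, 0 with a -log10 q of at least 5 (18 unadjusted) and 1 on pileups. For 10 nM against low doses, LNCaP (37) had 20 on pileups and VCaP (18) had 9 under the 8-library filter. Called at any single low dose, LNCaP (27) had 17 with the compared groups alone and 13 on pileups, and VCaP (6) had 0 (49 unadjusted), 0 with the q threshold (34 unadjusted), 3 by fold enrichment and 3 on pileups. The line difference in change (2) was 0 under the 8-library filter (13 unadjusted), 0 with lists as deposited (23), 0 with the q threshold (5), 1 with the compared groups alone and 5 by fold enrichment. The line difference in level (153) was 50 with the q threshold and 37 on pileups. A test on pileups or with the q threshold takes fewer regions. The cause of the other shifts was not tested.

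With 1 library left out, the counts ran from 56 to 74 (LNCaP 10 nM against vehicle), 15 to 20 (low doses), 22 to 39 (10 nM against low doses) and 22 to 32 (any low dose). In VCaP they ran from 21 to 26, 1 to 6, 10 to 22 and 1 to 7 in that order, from 0 to 4 for the line difference in change and from 140 to 152 in level. The lowest values came without LNCaP 10 nM replicate 5 (22), without VCaP 10 nM replicate 1 (21 and 10), without VCaP vehicle replicate 2 (1, low doses) and without VCaP 0.06 nM replicate 1 or 4 (1, any low dose). The VCaP low-dose count was 2 or 3 without any other vehicle or low-dose library that moved it over 1.5 times: 0.01 nM replicate 4, 0.03 nM replicates 1 and 4, 0.06 nM replicates 1, 2 and 4 and vehicle replicate 4. The any-low-dose count was 3 without 0.06 nM replicate 2 or vehicle replicate 2. The line difference in change was 0 without LNCaP 10 nM replicate 4 or 5 or VCaP vehicle replicate 2 (16, 20 and 23 unadjusted), 1 without LNCaP vehicle replicate 3 or 4 or VCaP 10 nM replicate 1 or 2, and 4 without VCaP vehicle replicate 4.

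With a replicate block the counts were 75, 26, 46 and 30 in LNCaP and 42, 7, 26 and 8 in VCaP. Same-numbered libraries deviated together (r over 0.1) in 22 of 30 LNCaP and 27 of 30 VCaP pairs, and 10 of 15 and 15 of 15 libraries correlated best with their own number, a hint from the data and not the design. With replicate number within line as a block, a fit chosen after seeing the data, the line difference in change was called at 9 regions, 7 of them with the greater response in VCaP, in place of 2. The block called the HOXB13 gene-end region (site 34) in LNCaP at 10 nM (-18.9 points, adjusted p = 0.028) and changed no other call on a single region. No paired analysis was possible for the line difference in level because blocks within a line take up the difference between lines. The 62 results on single regions include gene-end results that were not called. Of the 62, 27 lost the call under at least 1 alternative. Another 32 stayed on the same side of the threshold, called or not, under every alternative that could be fitted, and none reversed. Of their 1088 values under alternatives, 982 kept direction and side of the threshold, 103 lost the call and 3 gained one. The lists end at the authors' threshold, and reads per library are unknown, so a rank of 0 sets no limit on signal.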
